A study of Mus musculus with 278 samples.

Results

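The histone genes of the deposited expression matrix were chosen by symbol: every row whose name starts with Hist1h, Hist2h, Hist3h, Hist4h, H2af or H3f3, together with H1f0 and H1fx. This gave 80 of 23354 genes. Of these, 65 are replication-dependent genes, 11 are replacement variants, 3 are known as testis-expressed genes (Hist1h1t, Hist1h2aa and Hist1h2ba), and H2afx was kept apart because it is a variant whose transcript is known in both a stem-loop and a polyadenylated form. Hist3h2bb-ps, among the 65, and H2afy3, among the 11, are annotated as processed pseudogenes. The rule reads symbols and no measured value, but it was set with earlier results of these data known.

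The libraries come from 278 single spermatogonia of untreated mice at postnatal day 6 that carry an EGFP reporter of Id4, an inhibitor of DNA binding expressed in spermatogonial stem cells. All cells were sorted as EGFP-positive from testes pooled from at least 2 pups, so no EGFP-negative control exists, and the strain is not given in the sources used here. They were imaged on a Fluidigm C1 chip and ranked by EGFP brightness into 4 quartiles, from Q1 (bright, 74 cells) through Q2 (70 cells) and Q3 (74 cells) to Q4 (dim, 60 cells). Each quartile holds cells of 5 preparations, with 26, 62, 37, 75 and 78 cells. The unit of replication is the preparation, and wherever 5 values follow each other below they are in the order of preparations 1 to 5. Values are FPKM, which divide the fragments of a gene by its length and by the mapped fragments of the cell. Cells expressed a median of 13 of 13 germ cell markers, and the lowest cell 4 of 13. Of 14 Sertoli cell markers, 10 reached 1 FPKM in under 5% of cells, Amh and Fshr among them. The others were Rhox5 (14.4%), Clu (10.1%), Sox9 (7.55%) and Wt1 (6.1%). Also under 5% were 11 of 14 Leydig and peritubular markers and 9 of 12 endothelial and blood markers. Above it were Col1a1 (23.4%), Star (19.8%) and Pdgfra (17.3%) of the former, and Cd68 (14.4%), Pecam1 (10.1%) and Cdh5 (6.1%) of the latter. The summed level of the Sertoli cell markers lay between 7.11 and 57.5 FPKM in Q1 and between 0.459 and 57.4 FPKM in Q4 over preparations, with up to 171 FPKM in Q3. A cell held a median of 0 of these markers and at most 10 of 14.

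Histones H2A, H2B, H3 and H4 form the core of the nucleosome, and linker histone H1 binds the DNA between nucleosomes. The replication-dependent genes sit in clusters, lack introns and are transcribed mainly in S phase. Their messenger RNAs normally end in a conserved stem-loop that binds the protein Slbp, and carry no poly(A) tail. Replacement variants such as H3.3 (H3f3a and H3f3b) and H2A.Z (H2afz and H2afv) are made throughout the cell cycle from polyadenylated transcripts. The libraries were primed on poly(A) RNA per the labels, so a replication-dependent gene is seen here through whatever part of its transcripts was primed, and its values cannot be read as the level of its stem-loop transcripts.

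The 3′ stem-loop is the known mark of the replication-dependent class in sequence. Its letters were searched on the sense strand after the stop codon of each GENCODE M21 transcript model (GRCm38), as GG, any 2 bases, CT, any base, T, any base, CA, any 3 bases and CC. A match was present in 35 of 65 replication-dependent genes and in 0 of 11 replacement genes, 0 of 3 testis-expressed genes and not in H2afx, against 0.861% of 22422 other coding genes. Of the 30 replication-dependent genes without a match, 13 have at most 30 annotated bases after the stop codon, so the window was short or empty there. No annotated base follows the stop codon in 2 of the 3 testis-expressed genes and in 1 of the 11 replacement genes. The pseudogenes H2afy3 and Hist3h2bb-ps have no annotated coding sequence, so neither they nor those genes could match. H2afx had no match in its 884 annotated bases after the stop codon, although a stem-loop form of its transcript is known. A stem-loop with other letters, or beyond the annotated bases, would not be found, so no match does not mean that none exists. The sequences of 6 of the 8 replication-dependent genes with the highest mean FPKM are shown because they carry the match; the 16 bases in capitals are the stem-loop letters, and all lie on chromosome 13 of GRCm38. The windows are chr13:23581943-23581972 on the plus strand for Hist1h4d, chr13:23698082-23698111 on the minus strand for Hist1h4c, chr13:22043631-22043660 on the plus strand for Hist1h2bj, chr13:21722499-21722528 on the plus strand for Hist1h2bm, chr13:23570661-23570690 on the minus strand for Hist1h2ae and chr13:23751565-23751594 on the plus strand for Hist1h2ab.
Hist1h4d: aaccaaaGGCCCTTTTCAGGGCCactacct
Hist1h4c: aacaaaaGGCCCTTTTCAGGGCCacccaca
Hist1h2bj: atccaaaGGCTCTTTTCAGAGCCacgcaca
Hist1h2bm: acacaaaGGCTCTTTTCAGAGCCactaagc
Hist1h2ae: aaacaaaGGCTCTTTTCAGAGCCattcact
Hist1h2ab: aaacaaaGGCTCTTTTCAGAGCCacccaca
The capitals are the same in both H4 genes and the same in the 4 H2A and H2B genes. The annotated transcript goes on for 770 bases after the stem-loop in Hist1h4d and for 454 in Hist1h4c, but only for 151 in Hist1h2ae, 46 in Hist1h2bm, 23 in Hist1h2bj and 11 in Hist1h2ab. Hist1h1a, a linker histone gene, and Hist1h4i had no match in their annotated 48 and 376 bases after the stop codon. Detection was counted by the length of the annotated 3′ end: 7 of 17 genes with more than 100 bases after the stem-loop reached 1 FPKM in at least 10% of cells. So did 6 of 18 genes with 100 or fewer and 6 of 30 genes without a match, against 10452 of all 23354 genes. These lengths are of GENCODE models, and the annotation used for the FPKM is not known, so the quantified 3′ ends may differ.

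Upstream, RefSeq (GRCm38.p6) gives 1 promoter for 69 of the members. In the 150 bases before the start site, CCAAT on either strand was present in 46 of 57 replication-dependent genes and 5 of 9 replacement genes, against 24.5% of all 32851 promoters. TATAAA on either strand was present in 22 and 1 of them, against 7.57% of all promoters, and both motifs in 18 and 1, against 1.92%. The promoters of the gene with the highest mean FPKM in each class are shown, with CCAAT (or ATTGG, its reverse complement) and TATAAA in capitals. That of Hist1h4d lies at chr13:23581418-23581567 on the plus strand, and that of H3f3b at chr11:116024505-116024654 on the minus strand.
Hist1h4d: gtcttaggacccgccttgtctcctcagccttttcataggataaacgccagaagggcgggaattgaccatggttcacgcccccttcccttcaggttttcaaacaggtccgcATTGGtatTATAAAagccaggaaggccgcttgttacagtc
H3f3b: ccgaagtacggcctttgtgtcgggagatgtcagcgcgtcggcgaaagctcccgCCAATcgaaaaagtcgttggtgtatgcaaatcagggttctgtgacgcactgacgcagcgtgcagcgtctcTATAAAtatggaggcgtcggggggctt
Both hold both motifs, and H3f3b was the replacement gene that held TATAAA. A match is a description of letters and not of a bound site.

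The 2 classes were unlike in how many of their genes were seen. At 1 FPKM or more in at least 10% of cells, 19 of 65 replication-dependent genes, 9 of 11 replacement genes, 1 of 3 testis-expressed genes and H2afx were detected. This is 30 of 80 members, against 10452 of all 23354 genes. In at least 50% of cells, 4 replication-dependent genes, 8 replacement genes and H2afx were detected. Listed at 0 in every cell were 6247 of all 23354 genes. Members among them were 10 replication-dependent genes and H2afb1, an X-linked H2A variant. Of the Hist2 cluster on chromosome 3, Hist2h2aa1, Hist2h2aa2, Hist2h2be, Hist2h3c1 and Hist2h3c2 were among these. In this order, 89.4%, 100%, 0%, 100% and 63.5% of the 50-base windows of their transcripts also occur in another gene. Such sharing limits how fragments can be assigned, and its part in these zeros was not tested. Just inside the threshold were Hist1h4h in 28 cells and Hist3h2a and Hist1h1b in 30 cells each, and just outside it Hist2h2bb in 25 and Hist1h3e in 24 cells.

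Replacement genes carried most of the histone signal. Summed over all cells, their FPKM came to 3.003 times that of the replication-dependent genes, and the replication-dependent sum was the larger in 4 cells. H3f3b (chr11:116021912-116027962), 1 of the pair of genes that encode H3.3, alone gave 65.5% of the replacement sum. Its mean was 1423, 1078, 1185, 1096 and 1110 FPKM (1178 ± 143, SD, n = 5 preparations), and it was detected in every cell. H3f3a (chr1:180800832-180813943), which encodes the same protein, had 111, 105, 105, 127 and 124 FPKM (114 ± 10.6). H2afz (chr3:137864487-137866922), the main H2A.Z gene, had 328, 188, 270.2, 255 and 209 FPKM, and H2afv (chr11:6427229-6444443), the second H2A.Z gene, 192, 158, 209, 162 and 149.6 FPKM. The level of H3f3b lay far above that of the next gene in every preparation, whereas the ranges of H2afz and H2afv overlapped.

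The macroH2A genes, whose products carry a large additional domain and are associated with repressed chromatin, followed at lower levels. H2afy had 57.3, 51.6, 66.96, 49.7 and 40.2 FPKM and was seen in 96.04% of cells, while H2afy2 had 11.99, 14.2, 19.4, 14.2 and 14.5 FPKM and was seen in 56.8%. H2afj, an H2A variant with few differences from canonical H2A, had 7.28 ± 1.75 FPKM, and H1f0, a linker histone known from cells that leave the cycle, 7.79 ± 3.55 FPKM (SD, n = 5). Preparations overlapped between these last genes, so their order is not set. H1fx, the remaining replacement linker histone, was low at 0.723 ± 0.595 FPKM, and H2afy3 reached 1 FPKM in 20 cells.

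Among replication-dependent genes, Hist1h4d (chr13:23581598-23582735), 1 of the genes for H4, gave 62.1% of the class sum and was its highest gene in 209 of the 276 cells that had any. It was detected in 87.4% of cells with 360 FPKM on average over cells. H4 genes together gave 70.9% of the class sum, H2B genes 13.2%, H1 genes 6.63%, H2A genes 5.91% and H3 genes 3.32%. The core histone proteins enter the nucleosome in equal number, whereas these shares are of transcripts and depend on the length by which fragments were divided. The smallest steps between low values of Hist1h4d correspond to an effective length of about 101 bases, although its GENCODE model has 1138 bases, so 1 fragment is worth about 14.2 FPKM in a cell of median depth. Where Hist1h4d was detected, its median was about 18.3 fragments.

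The next genes were lower, and in preparation 3 the gap to Hist1h4d was small, with 67.9 FPKM for Hist1h4d and 55.8 FPKM for Hist1h2bj. Hist1h2bj, an H2B gene, had 42.8 ± 12.3 FPKM over preparations (SD, n = 5), Hist1h4c 25.5 ± 7.15, Hist1h1a 23.7 ± 9.55, Hist1h2bm 18.8 ± 3.93 and Hist1h4i 16.7 ± 5.19. The H2A genes Hist1h2ae and Hist1h2ab had 13.3 ± 4.48 and 10.3 ± 3.32 FPKM. Their preparations overlapped, so no order among neighbours is given. These values rest on few fragments: about 2.92 fragments was the median of Hist1h4c where detected, and 8.39 that of Hist1h1a. Fragments come from amplified cDNA and are not counts of molecules. Copies are alike, which limits how fragments can be assigned. Of the 50-base windows in the transcript, 59.4% in Hist1h2bj, 58.02% in Hist1h2ab, 43.8% in Hist1h2bm and 43.2% in Hist1h2ae also occur in another gene, against 10.2% in Hist1h4d, 6.86% in H3f3b and 0% in Hist1h1a. These shares are over GENCODE models. For Hist1h4d the model has 1138 bases but the estimated effective length is about 101. The share in the part of Hist1h4d that was quantified is therefore not known. Hist1h2ae, Hist1h2ab, Hist1h2aa, H2afx, H3f3a, H2afy, H2afy2, H1f0, H2afj, H1fx, Hist1h2ag and Hist3h2a also overlap a gene on the opposite strand, whose reads cannot be told apart from theirs without strand.

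Of the testis-expressed genes, Hist1h2aa, a germ cell H2A, was seen in 33.8% of cells with 12.1, 8.76, 14.8, 16.1 and 12.6 FPKM. Hist1h1t, the linker histone of spermatocytes, reached 1 FPKM in 7 cells and Hist1h2ba, a germ cell H2B, in 5. H2afx, whose product is phosphorylated at DNA breaks, was seen in 53.6% of cells with 11.2, 9.07, 12.9, 4.88 and 4.72 FPKM.

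**Figure D1:**
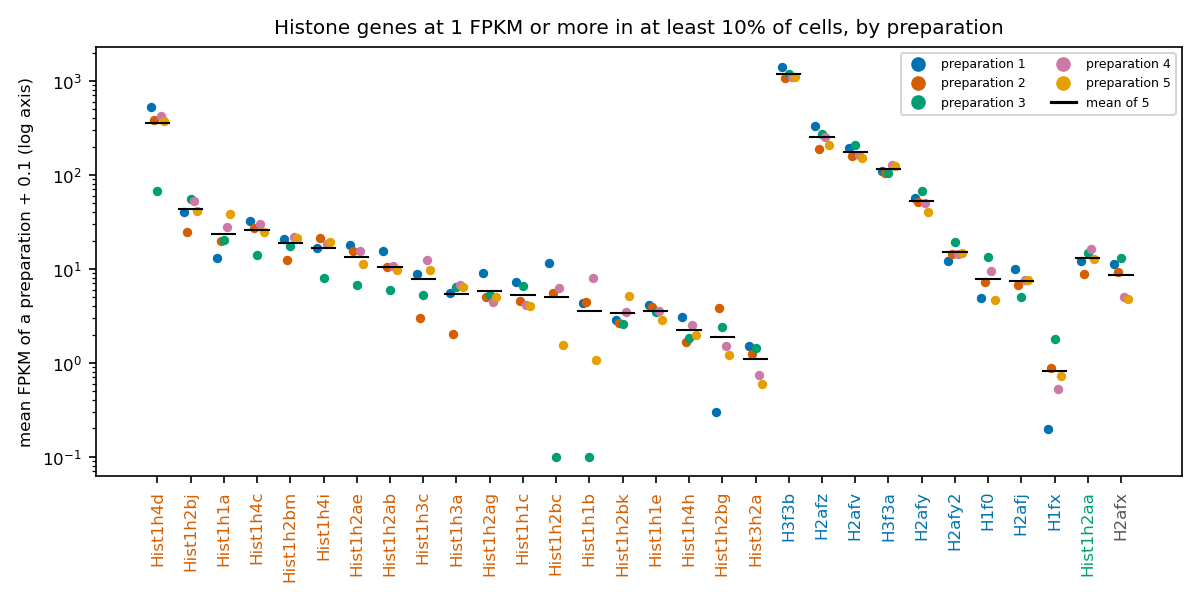
Mean FPKM (plus 0.1, log axis) of the 30 histone genes detected in at least 10% of cells, with 1 point per preparation and a bar at the mean of 5. Gene names are orange for replication-dependent, blue for replacement, green for testis-expressed genes and grey for H2afx; preparation 3 (green points) is lowest for Hist1h4d, at 67.9 FPKM against 370 to 524.

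Hist1h4d differed far more between preparations than between EGFP quartiles. It averaged 524, 381, 67.9, 419 and 370 FPKM, so preparation 3 was 6.23-fold below the mean of the others, and it was detected in 37.8% of its cells against 92.3% to 100% elsewhere. Of the 1115 tested genes with a mean of at least 100 FPKM over preparations, a comparison chosen after its values were seen, none other was as many fold lower in preparation 3. Preparation accounted for 91.7% of the sum of squares of the 20 preparation and quartile means of Hist1h4d, and quartile for 2.23%. Over the 19 replication-dependent genes tested the medians were 34.4% and 10.5%, over the 9 replacement genes 49.5% and 13.2%, and over all 10452 genes tested 41.3% and 10.4%. The share of preparation was the larger in 15 of the 19 and 7 of the 9 genes, with Hist1h2bj, Hist1h3c, Hist1h1b, Hist3h2a, H2afz and H1f0 as the exceptions. Preparation 3 also stood lowest for 8 of 19 replication-dependent and 2 of 9 replacement genes, among all genes tested for 28.3%, and highest for 1 and 5 of them, among all genes for 28.7%. Hist1h1b and Hist1h2bc were listed at 0 in all of its 37 cells.

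The replication-dependent sum was 769, 569, 238, 669 and 598 FPKM over the preparations, and without Hist1h4d 245, 188, 170.0, 250.1 and 228 FPKM. Most of the gap of preparation 3 therefore lay in Hist1h4d. The replacement sum was 2138, 1610.3, 1876, 1721 and 1660 FPKM, and preparation 3 was second highest. In preparation 3 the mean number of genes seen in a cell was 4437, where the others had 5875 to 7148, with an estimated median depth of 789314 mapped fragments, the highest of the 5. The part of detected genes in the low Hist1h4d of preparation 3 was not tested.

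**Figure D2:**
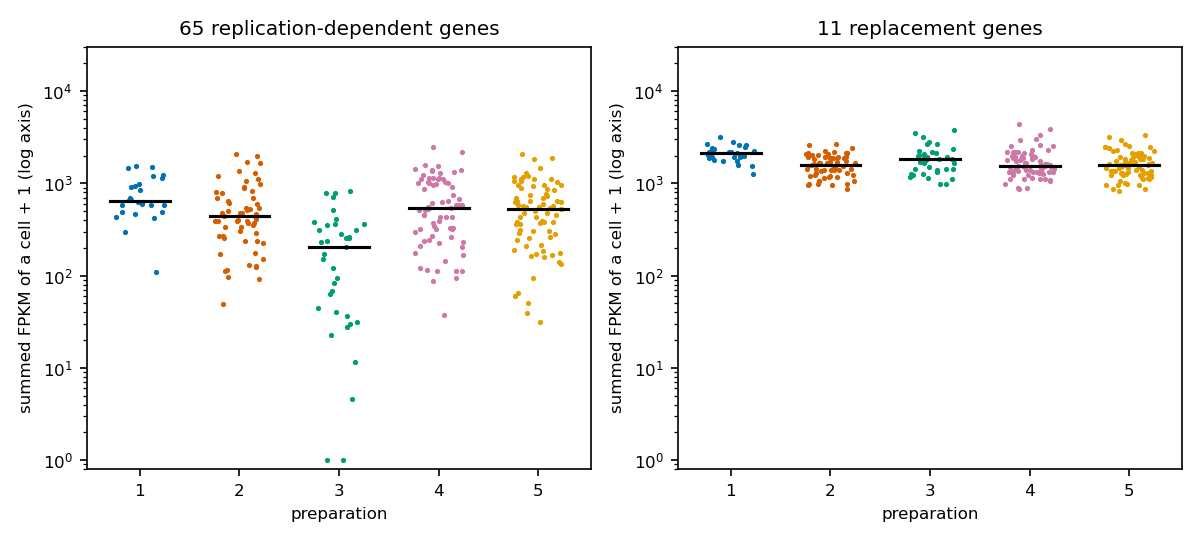
Summed FPKM (plus 1, log axis) of the 65 replication-dependent and the 11 replacement genes in each of 278 cells, by preparation, with a bar at the median. The replication-dependent sum runs from 0 to 2492 FPKM and is lowest in preparation 3, while the replacement sum runs from 815 to 4414 FPKM.

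EGFP quartiles were compared to ask whether histone genes follow Id4 reporter brightness. No member passed the test: with limma on the 20 means of log2(FPKM + 1), adjusted over 10452 genes, 0 of 30 members differed between Q1 and Q4, where 8 of all genes did (0.0765%). The trend over quartiles called 0 members and 0.134% of all genes, and the test for any difference among quartiles called 0 members and 0.0% of all genes. At an unadjusted p under 0.05, 5 members were higher in Q1, against 10.4% of all genes, and 0 were lower, against 1.03%. These were 4 replication-dependent genes (Hist1h4c, Hist1h1b, Hist1h3c and Hist1h4d) and the replacement gene H2afz. The trend gave 4 members with higher values toward Q1 at that level (H2afz, Hist1h4c, Hist1h1b and Hist1h3c), against 11% of all genes, and 0 lower, against 1.24%. The test for any difference gave 3 at that level, against 8.38%. In simulated means with 200 changed genes, 92.5% of differences of 2 on the log2 scale were recovered and 25.5% of differences of 1, so changes of the smaller size could be missed here.

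The fitted difference, Q1 minus Q4, was above 0 for 21 of 30 members, a share close to the 69.5% of all genes tested. Its median was 0.17 for the members, as for all genes, 0.16 for the 19 replication-dependent genes and -0.03 for the 9 replacement genes. When each cell was scaled to a common 75th percentile, the median of all genes became 0.27, and H2afv, H3f3a, H1f0, H2afj and Hist1h3a turned from below to above 0, so that 26 of 30 members lay above it. Higher in Q1 in all 5 preparations were 0 members against 8.42% of all genes, and lower in all 5 was 1 member against 1.67%. Cells of Q1 had a higher mean number of detected genes than cells of Q4, 6293 ± 931 against 5732 ± 1305 (SD, n = 5 preparations), and with this number as a covariate the median of all genes was -0.02 and 15 of 30 members lay above 0. Its part in the differences below was not tested further.

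Hist1h4c, an H4 gene, had the largest fitted difference of the members. Its mean in Q1 was 13.5, 51.1, 15.9, 47.3 and 29.2 FPKM, and in Q4 33.4, 12.4, 5.04, 2.98 and 26.8 FPKM. Preparations 2 to 5 were higher in Q1 and preparation 1 was lower, and the ranges overlapped. On the log2 scale the difference was 1.48 ± 0.41 (SE; limma, adjusted p = 0.163; n = 5 preparations), and 0.97 without preparation 4. It was seen in 47.98% of cells in Q1 but 29.6% in Q4, as means over preparations. Hist1h4d, the abundant H4 gene, had 429, 352, 125, 505 and 367 FPKM in Q1 and 502, 438, 1.68, 483 and 306 FPKM in Q4. The ranges overlapped, and the widest step was in preparation 3, where 7 cells stand behind the value of 1.68. The difference was 0.80 ± 0.34 (limma, adjusted p = 0.366), and it was 0.40 without preparation 3, 1.34 without preparation 2 and -0.18 with detected genes as a covariate. The third H4 gene, Hist1h4i, had 18.8, 16.6, 23.7, 25.7 and 12.3 FPKM in Q1 and 27.7, 20.2, 4.26, 7.35 and 15.2 FPKM in Q4. Its ranges overlapped, with a difference of 0.11 ± 0.36 (limma, adjusted p = 0.940) that was -0.17 without preparation 3, 0.33 without preparation 5 and -0.65 with detected genes as a covariate.

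Of the linker histone genes of the class, Hist1h1c and Hist1h1e had differences of 0.05 and 0.01. Hist1h1a had 15.4, 18.7, 33.8, 31.8 and 28.3 FPKM in Q1 and 5.90, 23.2, 12.8, 31.6 and 37.3 FPKM in Q4. The ranges overlapped, and the difference was 0.26 ± 0.39 (limma, adjusted p = 0.851), 0.05 without preparation 3, 0.51 without preparation 2 and -0.58 with detected genes as a covariate. Hist1h1b had 13.6, 7.83, 0, 10.9 and 1.67 FPKM in Q1 and 0, 1.13, 0, 9.72 and 0 FPKM in Q4. Q1 was higher in 4 preparations and both were listed at 0 in preparation 3. Its difference was 0.62 ± 0.21 (limma, adjusted p = 0.247), with detection in 30 of 278 cells.

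The 2 most abundant H2B genes had fitted differences below 0. Hist1h2bj had 19.4, 16.8, 48.6, 74.5 and 26.99 FPKM in Q1 and 34.1, 19.2, 96.3, 49.02 and 41.2 FPKM in Q4, a difference of -0.20 ± 0.45 (limma, adjusted p = 0.906) that was 0.27 without preparation 5 and -0.56 without preparation 4. Hist1h2bm had 26.004, 8.83, 0, 23.4 and 26.8 FPKM in Q1 and 20.9, 10.3, 81.5, 13.8 and 20.9 FPKM in Q4, a difference of -0.31 ± 0.38 (limma, adjusted p = 0.807) that was 0.03 without preparation 3 and -0.67 without preparation 4. In both genes the ranges overlapped, and preparation 3 had the highest Q4 value. Other detected H2B genes did not share this sign: Hist1h2bc, Hist1h2bg and Hist1h2bk had differences of 0.04, 0.18 and 0.33.

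Of the H2A genes, Hist1h2ae was the member that was lower in Q1 in all 5 preparations. It had 16.01, 16.5, 8.53, 18.02 and 8.20 FPKM in Q1 and 28.7, 19.2, 11.6, 21.04 and 10.3 FPKM in Q4. The steps within preparations ran from -0.68 to -0.03 on the log2 scale, and the quartile ranges overlapped. The fitted difference was -0.20 ± 0.39 (limma, adjusted p = 0.891), or -0.11 without preparation 3. Hist1h2ab had 22.1, 7.25, 6.36, 13.4 and 13.6 FPKM in Q1 and 34.8, 10.9, 21.1, 9.59 and 6.62 FPKM in Q4. Its ranges overlapped, with a difference of 0.23 ± 0.34 (limma, adjusted p = 0.848), 0.06 without preparation 4 or 5, 0.39 without preparation 3 and -0.23 with detected genes as a covariate. Of the remaining 10 replication-dependent genes tested, Hist1h3c, an H3 gene, had 9.21 ± 9.52 FPKM in Q1 and 3.12 ± 2.28 FPKM in Q4 (SD, n = 5), a difference of 0.86 ± 0.36 (limma, adjusted p = 0.347). The other 9 had differences between -0.04 and 0.33.

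**Figure D3:**
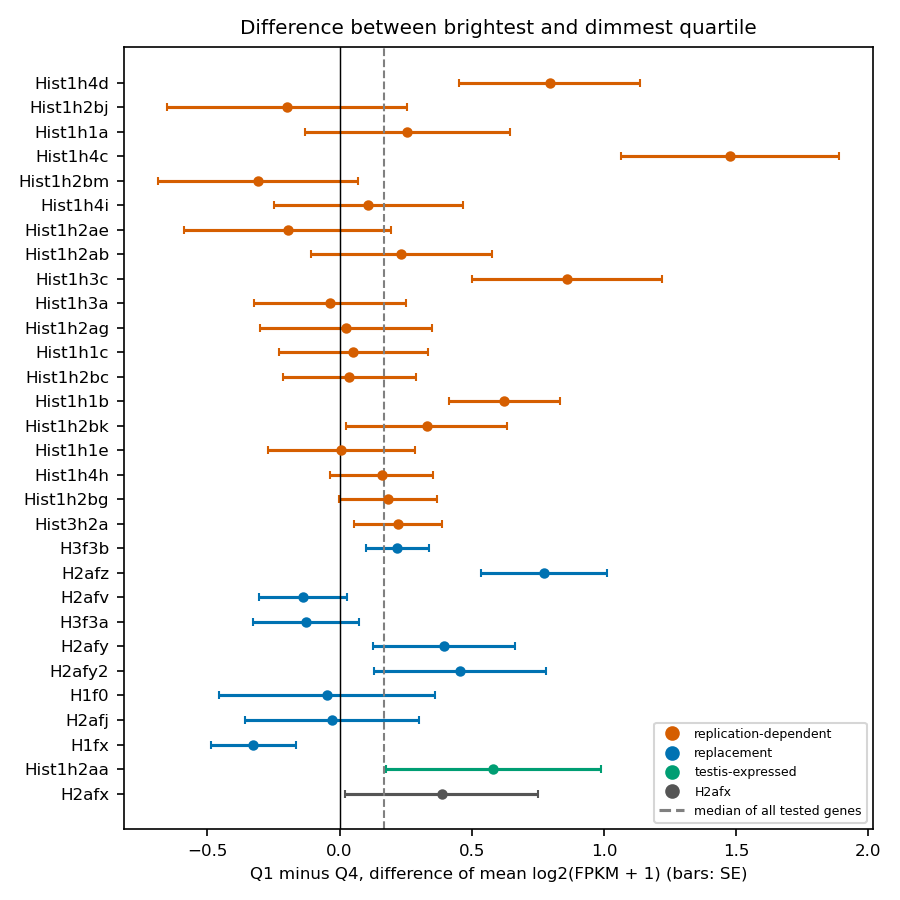
Fitted difference between Q1 and Q4 in mean log2(FPKM + 1) for the 30 tested histone genes, with bars of 1 SE, a solid line at 0 and a dashed line at the median of all tested genes (0.17). Hist1h4c is farthest from 0 at 1.48, and the members lie on both sides of the dashed line.

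Among replacement genes, H2afz had the largest fitted difference. Its mean in Q1 was 416, 214, 433, 343 and 215 FPKM, and in Q4 201, 135, 191, 185 and 258 FPKM. Q1 was higher in preparations 1 to 4 and lower in preparation 5, and the ranges overlapped between 214 and 258 FPKM. The means over preparations fell from the bright to the dim quartile, from 324 ± 105 in Q1 through 246 ± 79.04 in Q2 and 211 ± 30.9 in Q3 to 194 ± 43.8 FPKM in Q4 (SD, n = 5). The slope toward Q1 was 0.24 ± 0.08 per quartile step (limma, adjusted p = 0.186) and the difference of Q1 and Q4 was 0.77 ± 0.24 (adjusted p = 0.199). It was 0.50 without preparation 3, 1.19 without preparation 5 and 0.50 with detected genes as a covariate.

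H2afv, the other H2A.Z gene, did not have this order. It had 190.2, 138, 191, 163 and 146 FPKM in Q1 and 218, 163, 211, 194 and 149 FPKM in Q4, lower in Q1 in each preparation on this scale. On the log2 scale it was lower in 4 of 5, with a difference of -0.14 ± 0.17 (limma, adjusted p = 0.803), or 0.09 when scaled to a common 75th percentile. Whether H2afz and H2afv differ in their response was not tested.

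The H3.3 genes had small fitted differences of opposite sign. H3f3b had 1515, 1078, 1235, 1393 and 1026 FPKM in Q1 and 1412, 931, 996, 967 and 1085 FPKM in Q4. Preparation 5 was the exception to a higher Q1, and the difference was 0.22 ± 0.12 (limma, adjusted p = 0.504), or 0.44 when scaled to a common 75th percentile, 0.11 without preparation 4 and 0.33 without preparation 5. H3f3a had 111, 92.7, 109.8, 127 and 107 FPKM in Q1 and 105, 101, 142, 146 and 129 FPKM in Q4. Its difference was -0.13 ± 0.20 (limma, adjusted p = 0.856), or 0.07 with that scaling and -0.03 without preparation 5, and the ranges overlapped in both genes.

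H2afy had 58.03, 46.7, 50.7, 48.5 and 43.4 FPKM in Q1 and 41.97, 59.02, 137, 56.6 and 42.8 FPKM in Q4. Its mean FPKM was thus higher in Q4, 67.4 against 49.5, while the mean of logs was higher in Q1 by 0.40 ± 0.27 (limma, adjusted p = 0.608), 0.23 without preparation 5 and 0.60 without preparation 2. It was seen in 100% of cells in Q1 but 88.2% in Q4, and the log2 of the mean gave a difference of -0.28. H2afy2 had 15.2, 18.7, 11.6, 22.2 and 17.9 FPKM in Q1 and 6.38, 13.6, 33.97, 11.9 and 11.97 FPKM in Q4. Q1 was the higher outside preparation 3, with overlap only through that preparation, and the difference was 0.46 ± 0.33 (limma, adjusted p = 0.633), or 0.67 without it.

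H2afj, H1f0 and H1fx were lowly expressed. H2afj had 15.1, 9.84, 5.88, 6.26 and 7.36 FPKM in Q1 and 14.3, 5.21, 3.39, 7.55 and 12.4 FPKM in Q4, a difference of -0.03 ± 0.33 (limma, adjusted p = 0.986). H1f0 had 2.94, 7.14, 7.45, 12.3 and 1.19 FPKM in Q1 and 6.94, 7.21, 1.44, 4.74 and 2.98 FPKM in Q4, a difference of -0.05 ± 0.41 (limma, adjusted p = 0.982). The ranges of both genes overlapped, and their sign changed with the setting. H1fx, at 0.296 ± 0.285 FPKM in Q1 and 1.68 ± 2.08 FPKM in Q4 (SD, n = 5), had a difference of -0.33 ± 0.16 (limma, adjusted p = 0.444), or -0.14 without preparation 2.

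The testis-expressed Hist1h2aa had 22.7, 4.33, 16.96, 19.6 and 8.16 FPKM in Q1 and 0, 5.52, 2.72, 11.5 and 13.1 FPKM in Q4. Preparations 1, 3 and 4 were higher in Q1 and the others lower, with a difference of 0.58 ± 0.41 (limma, adjusted p = 0.626). It was 0.33 without preparation 1, 0.34 without preparation 3, 0.89 without preparation 2 and 1.01 without preparation 5. It was seen in 43.04%, 45.1%, 22.3% and 21.9% of cells from Q1 to Q4, as means over preparations. H2afx had 7.74, 5.89, 21.8, 6.81 and 4.81 FPKM in Q1 and 4.43, 12.6, 1.09, 6.24 and 3.43 FPKM in Q4. Its ranges overlapped and its difference was 0.39 ± 0.37 (limma, adjusted p = 0.735), or 0.14 without preparation 3 and 0.59 without preparation 2.

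**Figure D4:**
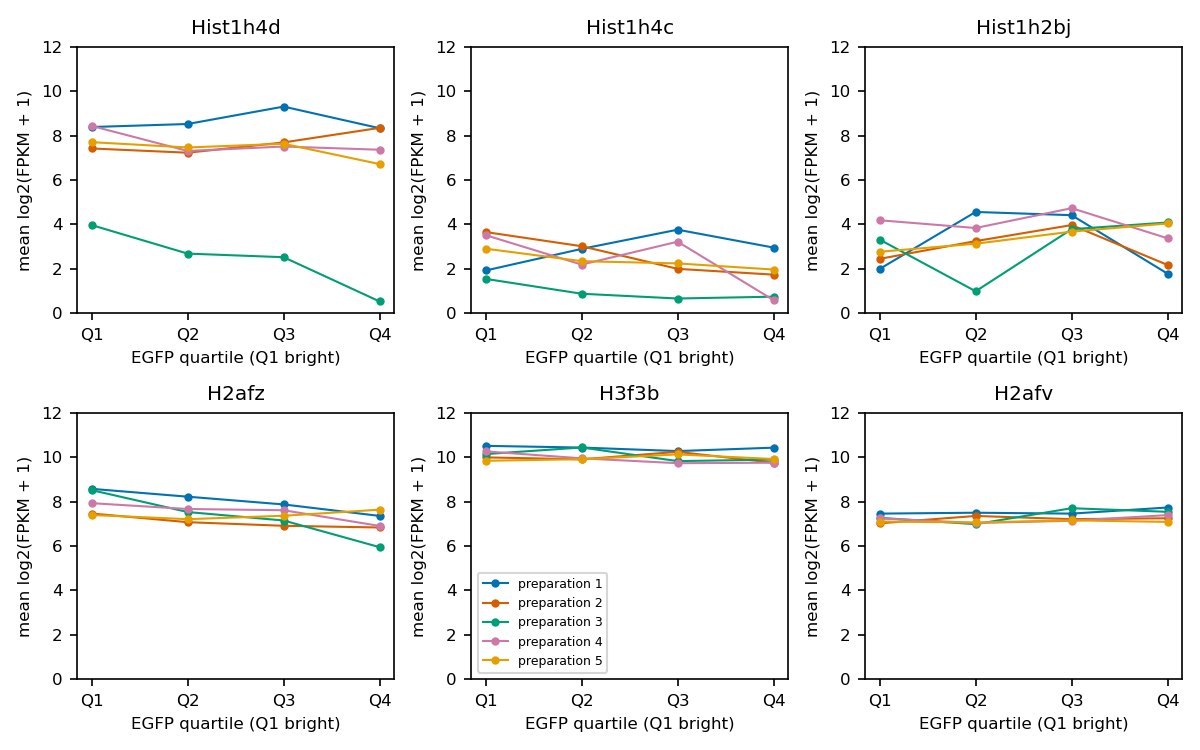
Mean log2(FPKM + 1) of 3 replication-dependent (upper row) and 3 replacement genes (lower row) by EGFP quartile, with 1 line per preparation. H2afz lies higher in Q1 than in Q4 in preparations 1 to 4, Hist1h4d of preparation 3 lies below the other preparations in every quartile, and H3f3b lies between 9.74 and 10.52 and H2afv between 6.99 and 7.74.

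As sums, the mean log2 difference of either class between Q1 and Q4 was smaller than its SD over the 5 preparations. The sums were described and not tested. The replication-dependent sum was 579 ± 191 FPKM in Q1 and 581 ± 184 FPKM in Q4, and the replacement sum 1931 ± 332 and 1682 ± 217 FPKM (SD, n = 5). On the log2 scale the differences were 0.31 ± 0.74 and 0.17 ± 0.19 (SD), and without preparation 3 they were 0.01 and 0.16. For the replacement sum this did not hold under the 75th percentile scaling, where the difference was 0.42 ± 0.30, nor without preparation 5, where it was 0.25 ± 0.09 (SD). Q1 was higher in 3 of 5 preparations for the former and 4 of 5 for the latter. A cell held a median of 8 replication-dependent genes at 1 FPKM or more, with a range of 0 to 23. Averaged over preparations the number was 8.22 ± 2.07 for Q1 cells and 7.13 ± 1.58 for Q4 cells (SD, n = 5). Each of the 5 preparations had more in Q1, on average by 1.10 ± 0.98 (SD), whereas at 5 FPKM or more 4 of 5 had, by 1.09 ± 1.17. Over cells, with preparation means subtracted, it had a correlation of 0.39 with the number of detected genes, of which these genes are a part.

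The other genes of the pathway were counted from lists. Of 28 tested genes that make, process or regulate histone messenger RNA, 0 were called by limma between Q1 and Q4, and at an unadjusted p under 0.05 there were 5 higher and 0 lower in Q1, with a median difference of 0.31 against 0.17 for all genes. For this and the next lists, the shares of all genes tested at that level are 10.4% higher and 1.03% lower. The smallest p belonged to Cstf2t, a cleavage stimulation factor (1.01 ± 0.34; adjusted p = 0.247), and Hinfp, the activator of H4 genes (1.26 ± 0.46; adjusted p = 0.275). Slbp, the stem-loop binding protein, had 275 ± 59.96 FPKM in Q1 and 268 ± 74.2 FPKM in Q4 (SD, n = 5), with a difference of 0.15 ± 0.26 (limma, adjusted p = 0.875). Npat, the coactivator of the histone clusters, had 32.9 ± 6.27 FPKM in Q1 and 38.3 ± 23.3 FPKM in Q4, while its difference on the log2 scale was above 0, at 0.52 ± 0.33 (limma, adjusted p = 0.584).

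Of 33 tested histone chaperone genes, limma called 0, and 4 were higher and 0 lower at an unadjusted p under 0.05, with a median of 0.19. Set, a chaperone that also inhibits histone acetylation, had 502 ± 87.7 FPKM in Q1 and 360 ± 108 FPKM in Q4 (SD, n = 5), was higher in 5 of 5 preparations and differed by 0.58 ± 0.18 (limma, adjusted p = 0.202). Asf1b, which hands H3 and H4 to assembly factors, had nearly the same mean FPKM in both, 222 ± 41.8 in Q1 and 231 ± 104 in Q4, while its difference on the log2 scale was 0.68 ± 0.24 (limma, adjusted p = 0.274). Tonsl, a reader of new H4, differed by 0.94 ± 0.37 (limma, adjusted p = 0.312). Of 50 S phase genes, 0 were called, 14 were higher and 0 lower at an unadjusted p under 0.05, and the median was 0.50. Rfc2, a subunit of the clamp loader of replication, had 134 ± 30.1 FPKM in Q1 and 71.5 ± 33.9 FPKM in Q4 (SD, n = 5) and a difference of 1.54 ± 0.40 (limma, adjusted p = 0.142). Mcm5, of the replicative helicase, had one of 0.97 ± 0.27 (limma, adjusted p = 0.163). Of 40 genes of G2 and M phase, 0 were called and 4 were higher and 0 lower at that level, with a median of 0.24.

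Within cells, histone genes varied with little common pattern. Over 278 cells, with preparation means subtracted, the 171 pairs of tested replication-dependent genes had a median Pearson correlation of 0.07 on the log2 scale and a highest of 0.37, between Hist1h1a and Hist1h4d. The 36 pairs of replacement genes had a median of -0.00 and a highest of 0.32. The highest of all 435 pairs crossed the classes, at 0.38 between H3f3b and Hist1h2ae. Points share library depth and the number of detected genes, and values this low in sparse data are given as a description. The summed level of the S phase list had a correlation of 0.29 with the replication-dependent sum and 0.27 with the replacement sum. For the G2 and M phase list they were 0.18 and 0.03, in the same order. The list of histone messenger RNA genes had 0.10 and 0.25, and that of chaperones 0.22 and 0.17. Outside the members, the genes most like the replication-dependent sum by Pearson correlation among 8322 genes were Mrpl33 (0.40), Cirbp (0.39), Ranbp1 (0.36), Polr2d (0.35) and Gapdh (0.35). Their Spearman correlations were 0.24, 0.35, 0.31, 0.28 and 0.21, so the order depends on the measure. Relative to its mean, the replication-dependent sum varied more between cells than the replacement sum, with a coefficient of variation of 0.793 against 0.331. Among the 30 members tested it ran from 0.413 for H3f3a and 0.454 for H3f3b to 3.92 for Hist1h1b and 5.35 for Hist1h2bg, with 1.01 for Hist1h4d. Preparation means were not subtracted here, so differences between preparations, such as the low Hist1h4d of preparation 3, enter these coefficients. Hist1h1b and Hist1h2bg reached 1 FPKM in only 30 and 33 cells. The part of low fragment numbers in these coefficients was not tested.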

How the data were processed

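Single-cell libraries were made on the Fluidigm C1 with SMARTer cDNA synthesis and Nextera tagmentation, per the labels' protocols. The authors deposited 1 matrix of 278 cells in FPKM. The header names no unit, which was read from the quantifier and the values. FastQC, TopHat, Cufflinks, Picard and mm10 (GRCm38) are named in the submitters' processing notes; their versions and settings, the strand and the annotation were not given in the sources used here. The run number in the titles (1 to 5) was taken as the preparation. One protocol sentence gives the dim quartile another number; the order used is that of the design text.

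Means of log2(FPKM + 1) for the 20 combinations of preparation and quartile were fitted with limma (3.58.1, R 4.3.3; trend = TRUE), weighted by cells, with preparation as a block and 12 residual degrees of freedom. All tests are two-sided, with Benjamini-Hochberg adjustment over the 10452 genes at 1 FPKM or more in at least 10% of cells and a threshold of 0.05. Same-numbered means deviated together: over 30 pairs the correlation of deviations was 0.08 at the lowest and 0.19 at the median, against -0.09 between preparations. Whether preparations stem from separate litters is not in the labels, so the spread may be partly technical.

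The depth of a cell was inferred from the smallest steps among low values of 2110 genes with 1 transcript of at least 1500 bases, with a mean fragment length of 260 bases that gave the clearest steps. Cells had a median of 700389 mapped fragments by this estimate (224731 to 1392614). Within 3%, 5317 low values lay at 1 fragment and 3649 between steps, so counts were not recovered and no count model was used. In 259 of 278 cells, estimates from separate sets of genes lay within 1.25-fold. A value of exactly 0 may stand for a missed molecule or for a failed estimate.

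Each gene's sequence, overlaps and coordinates came from GENCODE M21, which named all 80 members, and promoters from RefSeq by synonym. Members with full values were the 8 of highest mean FPKM of each main class, those of the small classes that passed the filter, and any called; for others up to 2 of smallest p in each direction, and up to 4 genes per pathway list. The members and lists were chosen with earlier results of these data known. The fit was tested on simulated data. The alternatives were pseudocounts of 0.1 and 10, no filter or one at 25% of cells, scaling to a common 75th percentile, no block, detected genes as a covariate, only Q1 and Q4, equal weights, the log of the mean, detection above 0 or at 5 FPKM, and leaving out each preparation. Python (3.11.15), pandas (2.3.3), NumPy (2.4.6) and SciPy (1.17.1) were used.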

Additional observations from a re-analysis of the deposited data

Results flagged for a closer look

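The values of 21 members given above for Q1 and Q4, and of the sums of both main classes, were checked for a preparation far from the other 4, which made 46 groups. With 5 independent normal values this check would mark about 1 group in 20. Sparse FPKM means from shared cells need not follow that rate, so the count is not read against it. In 5 of the 46 groups 1 preparation stood apart, and in 4 of these it was preparation 3. Hist1h2bm averaged 81.5 FPKM in its Q4 cells, against 10.3 to 20.9 FPKM in the other preparations. H2afy averaged 137 FPKM in the same cells, against 41.97 to 59.02 FPKM, and H2afy2 33.97 FPKM, against 6.38 to 13.6 FPKM. These 3 means rest on 7 cells, of which 42.9% had Hist1h2bm, 71.4% H2afy and 42.9% H2afy2 at 1 FPKM or more. H2afx averaged 21.8 FPKM in the Q1 cells of preparation 3, 11 in number, against 4.81 to 7.74 FPKM. In the Q4 cells of preparation 4, 15 in number, Hist1h1b averaged 9.72 FPKM and was seen in 13.3%, against 0 to 1.13 FPKM in the others.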

How the results depend on the processing

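No member was called between Q1 and Q4, in the trend or for any difference, under any of the 15, 14 and 14 alternatives run. Members at an unadjusted p under 0.05 numbered 1 to 8, 1 to 8 and 0 to 6. The 8 between Q1 and Q4 were of 69 members tested with no filter, against 1571 of 17107 genes. With detected genes as a covariate it was 1 of 30 members, against 563 of 10452 genes. With a common 75th percentile it was 6 of 30, against 1776 of 10452. For the trend and the test for any difference, shares over all genes are given above for the main fit only. The fit with no replicate block called 0 members and 0 of all genes between Q1 and Q4. At that level it had 4 of 30 members, against 592 of 10452 genes. Over all genes, the count of 8 between Q1 and Q4 became 44 with a common 75th percentile and was 0 to 11 under the others, with 0 without preparation 1, 4 or 5, 2 without preparation 3 and 11 without preparation 2. Differences of the 20 named members were on the same side of the threshold under all alternatives, and 11 of them took the other sign under at least 1 alternative, H2afj under 6 and H1f0 under 5 of 15. Hist1h1b and H1fx have no value with a filter at 25% of cells, which they did not pass. Scaling to a common 75th percentile moved the log2 difference of the replacement sum from 0.17 to 0.42. Depth limits the short replication-dependent genes most: in a cell of median depth 1 fragment of Hist1h4c is worth about 12.9 FPKM and 1 of Hist1h4d about 14.2 FPKM, so a level of a few FPKM is a mean over cells with none and cells with a few fragments.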
